A study of Mus musculus with 4 samples.

Results

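The regions described here are the autosomal positions at which 1 topologically associating domain (TAD) ended and the next began with no gap, in the TAD list of the 2D-cultured cells and, at exactly the same 40 kb bin edge, in the list of the 3D-cultured cells. Of the 7180 distinct border positions in both lists together, 1795 met this rule, which is 25.0%. They were chosen by the measured TAD starts and ends of both lists, so their presence in both cultures and the sizes of the TADs beside them are descriptions and were not tested. They made up 65.0% of the 2761 abutting borders in 2D and 59.9% of the 2999 in 3D.

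The lists came from in situ Hi-C, which ligates and sequences pieces of DNA that lie close together in the nucleus. The cells were AML12, an immortalized line of mouse hepatocytes, and the study asked whether growth in 3D alters the folding of the genome. The 2D-cultured cells grew on dishes and received 1 mM hydroxyurea for 24 h, and the 3D-cultured cells grew embedded in Matrigel and received 1 mM hydroxyurea for 36 h, so that both groups had been held at the G1/S boundary. Each culture had 2 biological replicates, 4 samples in all, and the authors pooled the replicates of a culture before they called TADs. Each culture therefore gave 1 list, no spread between replicates exists, and no p-value was computed. The difference in drug time and the difference in culture cannot be told apart. All cells are of 1 line, and TAD lists carry no expression, so the identity of the line could not be checked against hepatocyte markers. The autosomal lists held 4221 TADs in 2D and 4094 in 3D, and the number of reads behind a single TAD is unknown.

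A TAD is a stretch of chromosome whose DNA contacts itself more often than it contacts the neighbouring stretches. Cohesin is thought to extrude chromatin as a growing loop until it meets CTCF, a zinc finger protein whose DNA motif is asymmetric, and loops tend to form between motifs that point toward each other. The motif to the left of a border, at the right end of its own TAD, would then lie on the minus strand and the motif to the right of it on the plus strand, so that both point away from the border. Starts of widely expressed genes are also known to be common at TAD borders in mammals.

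The sequences below show these features at single borders, read from GRCm38.p6, the build that mm10 names. The first set holds the whole stretch between the starts of a pair of genes that are transcribed away from each other, on the plus strand, for 3 pairs close to a border. Capitals mark CpG dinucleotides.
Wdr4 and Ndufv3, chr17:31519981-31520114: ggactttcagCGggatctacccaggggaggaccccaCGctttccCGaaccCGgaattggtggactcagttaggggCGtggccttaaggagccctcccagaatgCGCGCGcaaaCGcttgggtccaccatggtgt
Serac1 and Gtf2h5, chr17:6079742-6079785: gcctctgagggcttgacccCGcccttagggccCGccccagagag
Atp5c1 and Kin, chr2:10080511-10080592: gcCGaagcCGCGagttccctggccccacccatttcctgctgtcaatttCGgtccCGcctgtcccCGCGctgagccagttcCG
The second set holds matches to the CTCF core consensus of 14 bases, which allows alternatives at 6 positions and was searched on both strands. Capitals mark the match, and each is written 5′ to 3′ on its own strand. The borders are that inside Chl1, which lies between very long TADs, and 3 of 6 with a close outward match on each side. These 6 were picked after their values were seen.
Chl1, left, minus strand, match at chr6:103683048-103683061: acccttaaCCAGCAGAGGGCAGacactacc
Chl1, right, plus strand, match at chr6:103746307-103746320: ttggagttCCAGCAGAGGGCGCactttcta
Slc2a6, left, minus strand, match at chr2:27038796-27038809: atctttgaCCACCAGGTGGCAGatgagacc
Slc2a6, right, plus strand, match at chr2:27043651-27043664: agttgtggCCAGCAGGGGGCACttctgtgc
Rpia, left, minus strand, match at chr6:70798029-70798042: agagctgaCCACTAGAGGGCACcacctcac
Rpia, right, plus strand, match at chr6:70804771-70804784: acattataCCACTAGGTGGCAGcagcaacc
Paxbp1, left, minus strand, match at chr16:91073693-91073706: aagtatcgCCAGTAGGTGGCAGacttggtc
Paxbp1, right, plus strand, match at chr16:91081640-91081653: gctttctcCCACTAGATGGCAGtatttctc
A match describes the letters of the reference and does not show that CTCF binds there.

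The TADs on either side of these borders were mostly short, and most of them were the same in both cultures. The median flanking TAD measured 240 kb in 2D and 280 kb in 3D, on the left and on the right alike, which were also the medians of all autosomal TADs in each list. Sizes ranged from 120 to 5720 kb in 2D and from 120 to 5960 kb in 3D. The shortest TADs, of 120 kb, formed 17.8% of the left and 18.1% of the right flanks in 2D against 22.0% of all 2D TADs. In 3D they formed 15.3% on each side against 17.1% of all TADs. Flanks of 1 Mb or more made up 14.3% on the left and 15.1% on the right in 2D, against 13.9% of all 2D TADs. The 3D shares were 14.6% and 15.3%, against 14.1% of all 3D TADs. The TADs on the 2 sides of a border were rarely of 1 size. They were equal at 147 borders (8.19%) in 2D and at 137 (7.63%) in 3D, the larger was typically 2.00 times the smaller (median, in both lists), and at 451 borders (25.1%) in 2D and 457 (25.5%) in 3D it was at least 4 times as long.

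**Figure D1:**
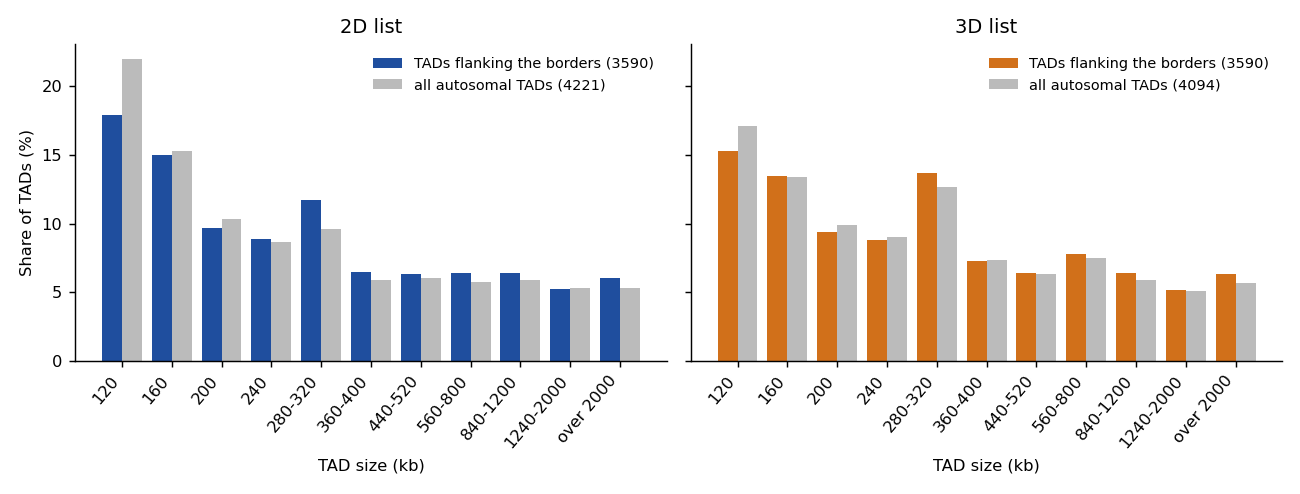
Sizes of the TADs that flank the 1795 borders (coloured bars, 2 per border) and of all autosomal TADs (grey bars) in the 2D and the 3D list, as the share of TADs (%) in each size class (kb). The flanks follow the sizes of all TADs, with a lower share at 120 kb in both lists.

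Counted as 2 flanks per border, 2612 of the 3590 flanking TADs (72.8%) had the same start and end in both lists. The rule fixed 1 end of each of them, which left at most the other end to differ. For 871 identical TADs the other end was also 1 of these borders, so the rule bore on both ends. Each of these was counted at both borders. Of all autosomal TADs, 47.0% in 2D and 48.4% in 3D had an identical TAD in the other list. Each TAD was counted once there, so these shares and the 72.8% are not on the same count. Of the 3590 flanks, 622 (17.3%) were longer in 3D and 356 (9.92%) were shorter. Among those that differed by a single bin, 247 were longer and 235 shorter in 3D, while among the 123 that differed by 400 kb or more, 88 were longer and 35 shorter. Both flanking TADs were identical at 954 borders (53.1%), 1 was identical at 704 (39.2%), and neither at 137 (7.63%). The intervals given for shares (95% Wilson) and for differences cover counting error only, and neighbouring borders are not independent of each other. Gene starts and CTCF matches were about as frequent in the 3 groups. A protein-coding gene started within 40 kb of 70.6%, 72.4% and 73.0% of them, and a CTCF match lay within 40 kb of 45.0%, 47.2% and 44.5%.

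Many of the borders followed each other along the chromosome with an identical TAD between them. There were 871 such TADs, with a median of 240 kb and a range of 120 to 5400 kb, and they linked 1317 of the borders (73.4%) into 446 runs of at least 2. The longest runs held 10 borders each. One ran on chromosome 4 from 62280000 to 66920000, over 4640 kb, and the other on chromosome 11 from 62720000 to 67960000, over 5240 kb. A run of 8 borders on chromosome 5, from 54120000 to 64080000, covered 9960 kb because its TADs were longer. Positions of borders are given as the last base of the left TAD.

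The rule required the same bin edge in both lists, and borders just outside it were few. Among the 2D abutting borders, 289 (10.5%) had their nearest abutting border of the 3D list 40 kb away, 26 (0.942%) had it 80 kb away and 651 (23.6%) had it farther off. A gene started within 40 kb of 65.7% of the 289 borders that missed the rule by 1 bin, and 38.1% of them had a CTCF match in that distance. Of the 3D abutting borders, 289 (9.64%) missed by 1 bin, with a gene start near 63.7% and a match near 36.3%, and 20 (0.667%) missed by 80 kb. A further 895 (29.8%) lay farther off, and 76.0% of them had a gene start within 40 kb, against 67.3% of the 651 in 2D.

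Protein-coding genes were dense at these borders. At least 1 started within 40 kb of 1284 of the 1795 borders, 71.5% (69.4 to 73.6%), against 22.7% of the 40015 bin edges that lay inside TADs of both lists at least 80 kb from any border. The difference was 48.8 percentage points (95% Newcombe interval 46.7 to 50.9) and had the same sign on 19 of 19 autosomes. Bin edges so far from a border cannot lie in TADs of 120 kb and long TADs hold more of them, so the borders were also set beside the positions 400 kb to their left and right, whatever lay there. Of these 3576 positions, 47.9% had a gene start within 40 kb, a difference of 23.7 points (21.0 to 26.3) with the same sign on 19 of 19 autosomes. The borders between abutting TADs in both lists did not have the most gene starts of all. The 1895 other positions that were a border in both lists, 1249 of which abutted in neither list, had a gene start in 78.3%. The difference, abutting minus other, was -6.78 points (-9.57 to -3.98), in that direction on 17 of 19 autosomes. It was 5.78 points higher (2.62 to 8.95) than at the 1524 positions that were abutting in 1 list and no border in the other, where it was 65.7%, with the same sign on 15 of 19 autosomes. Among borders whose flanking TADs all measured at least 200 kb, this last difference was 3.59 points with an interval that included 0 (-1.48 to 8.64), and that from the other borders of both lists was -14.2 points (-18.5 to -9.84). With a tolerance of 1 bin between the lists the difference from positions abutting in 1 list only was 11.8 points (7.24 to 16.4), and with gene starts counted within 80 kb it was 3.81 points.

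The rise in gene starts was narrow. In the 40 kb bins that touch the border, 0.738 genes started per border on the left and 0.717 on the right, while the next bins outward held 0.476 and 0.474. All bins from there to 480 kb held between 0.424 and 0.531. At a finer step, the 10 kb directly left and right of the borders held 427 and 415 starts in sum, the next 10 kb held 341 and 337, and the step from 40 to 50 kb held 218 and 222. At the other borders of both lists the bins that touch the border held 0.890 and 0.846 starts, and the bins next to them still held 0.706 and 0.711.

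**Figure D2:**
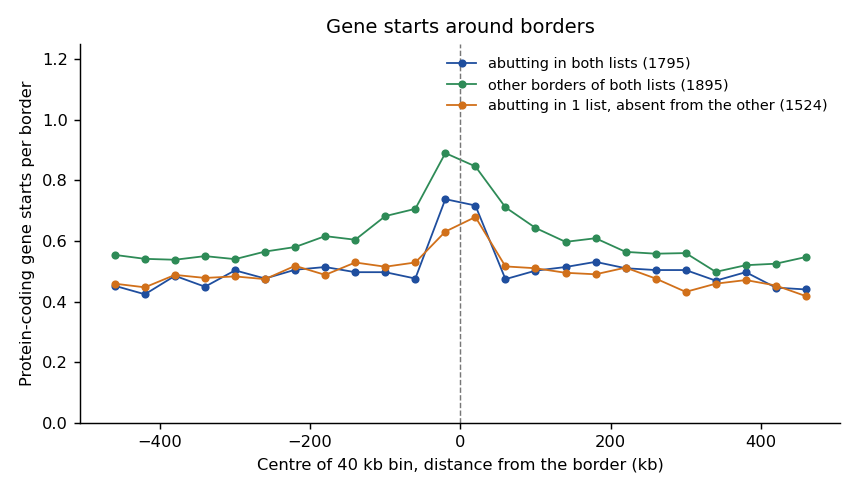
Mean number of protein-coding gene starts per border in 40 kb bins (y axis) against the distance of the bin's centre from the border (x axis, kb), for 3 classes of border. For the borders abutting in both lists the number is raised only in the bins that touch the border, and the other borders of both lists lie above them at every distance shown.

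No gene started within 40 kb of 511 borders (28.5%), 1 started near 573, 2 near 394, 3 near 166, 4 near 78, 5 near 36 and 6 or more near 37. The highest number was 10 and was reached at 3 borders. The border on chromosome 15 at 76360000 lay between TADs of 160 and 160 kb in both cultures, among Cyc1 (cytochrome c1 of the respiratory chain), Gpaa1 (attachment of GPI anchors), Exosc4 (a subunit of the RNA exosome), Maf1 (a repressor of RNA polymerase III), Sharpin, Oplah, Hgh1, Mroh1, Tssk5 and Gm35339. The border on chromosome 17 at 24720000, between TADs of 280 and 120 kb in both cultures, lay inside Rps2, a protein of the small ribosomal subunit. Rpl3l, Ndufb10 (a subunit of complex I), Gfer, Tbl3, Msrb1, Noxo1, Syngr3, Rnf151 and Hs3st6 started around it. At 25840000 on chromosome 17 the border had Stub1 (a ubiquitin ligase that works with chaperones), Rhot2 (mitochondrial transport), Jmjd8, Wdr24, Wdr90, Mettl26, Mcrip2, Rhbdl1, Fbxl16 and Gm20683, with flanks of 120 and 160 kb in 2D and 120 and 200 kb in 3D. Among the borders with 8 starts were those on chromosome 7 at 45720000, inside Rpl18 and beside Dbp, a clock-controlled transcription factor, and on chromosome 11 at 70000000, inside Phf23 and beside Acadvl, an enzyme of fatty acid oxidation.

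The number of gene starts went down as the flanking TADs became longer. Where the smallest of the 4 flanking TADs, 2 in each list, measured 120 kb (631 borders), 82.9% of the borders had a gene start within 40 kb (79.7 to 85.6%). The share was 71.1% (67.8 to 74.3%) at 160 to 240 kb (738 borders), 60.4% (55.0 to 65.6%) at 280 to 600 kb (326 borders) and 39.0% (30 to 48.8%) above 600 kb (100 borders). None of the 4 intervals overlapped. Flank size and local gene density were not separated. CTCF matches followed a weaker course. Their share was 44.5%, 49.7%, 43.6% and 32.0% in the same order, and only the last of these intervals (23.7 to 41.7%) lay wholly below that at 160 to 240 kb (46.1 to 53.3%).

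**Figure D3:**
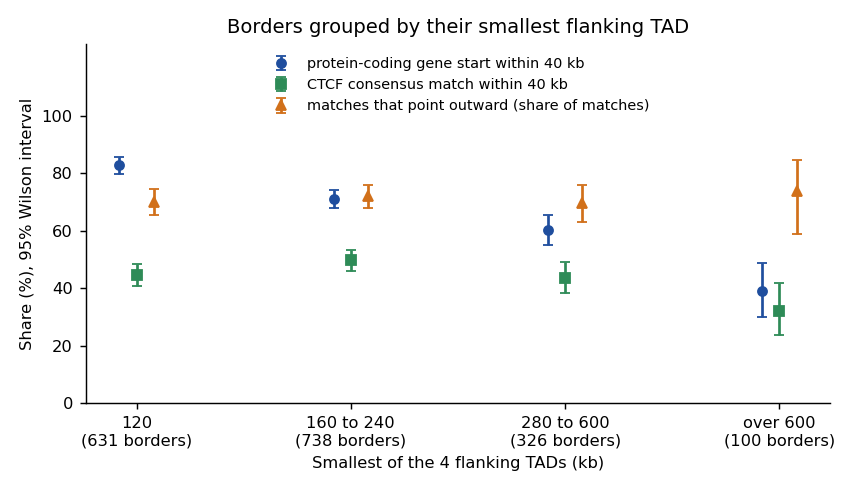
Share (%) of borders with a gene start (circles) or a CTCF consensus match (squares) within 40 kb, and share of the matches that point away from the border (triangles), by the smallest of the 4 flanking TADs (kb), with 95% Wilson intervals. Gene starts fall from 82.9% to 39.0% while the outward share stays between 69.7% and 73.8%.

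The 5 borders off chromosome 18 whose smallest flanking TAD was longest lay in gene-poor stretches and largely inside long genes. The border on chromosome 2 at 43680000 separated TADs of 4320 and 4080 kb in both cultures. It lay inside Kynu, an enzyme of tryptophan breakdown, with Lrp1b in the left TAD and Arhgap15, Gtdc1 and Zeb2 in the right one. That on chromosome 4 at 77600000 (3200 and 3280 kb in 2D, 3160 and 3240 kb in 3D) lay inside Ptprd, a receptor phosphatase of 2270724 bp. That on chromosome 2 at 97440000 (3000 and 4240 kb in both) lay inside Lrrc4c, a synaptic adhesion gene of 1313498 bp. The border on chromosome 6 at 103720000 (2840 and 3000 kb in 2D, 2840 and 2960 kb in 3D) lay inside Chl1, a neural cell adhesion gene, with Pdzrn3 and Cntn3 in the left TAD and Cntn6 and Cntn4 in the right one. No gene started within 40 kb of these 4. At the last, on chromosome 6 at 78480000 (5240 and 3440 kb in 2D, 5200 and 3480 kb in 3D), the start of Reg3g, a secreted antibacterial lectin, lay within 40 kb. Of the 5, only the Chl1 border had a CTCF match on both sides. The left match, on the minus strand in an intron, lay 36.9 kb from the border and the right match, on the plus strand in coding sequence, lay 26.3 kb from it. Both sequences are printed above. The Reg3g border had a single match, on the minus strand 33.1 kb to its right, and the other 3 had none in that distance.

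Off chromosome 18, the borders farthest from any gene start lay on chromosome 8 at 50280000 (1436 kb), on chromosome 7 at 94320000 (1240 kb) and on chromosome 2 at 97440000 (1122 kb). All 3 lay between TADs of more than 1 Mb in both cultures. Genes started in both flanking TADs at 1643 borders (91.5%) in 2D and 1662 (92.6%) in 3D. Only 1 of the 2 TADs held a gene start at 144 (8.02%) and 124 (6.91%), and neither did at 8 and 9. Counted per TAD and not per border, 93.9% of all autosomal TADs in 2D and 95.2% in 3D held a gene start. The median flanking TAD held 3 gene starts in each list, as did the median of all TADs.

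Borders fell inside genes often. A protein-coding gene spanned 982 of the 1795 borders (54.7%, 52.4 to 57.0%), against 35.2% of the positions inside TADs, a difference of 19.5 points (17.1 to 21.8) with the same sign on 19 of 19 autosomes. Against the positions 400 kb away, where the share was 50.7%, the difference was 4.01 points (1.18 to 6.82). The other border classes were close, with 57.2% at the other borders of both lists (a difference of -2.50 points, -5.69 to 0.708) and 52.8% at positions abutting in 1 list only (1.95 points, -1.45 to 5.35). The longest gene model across any border off chromosome 18 was Gm20388, a model of 4434882 bp on chromosome 8 that covers other genes, and it was the longest model across 7 borders. At the first 3 of these, at 119920000, 121840000 and 121960000, lay the starts of Usp10, a deubiquitinase, of Klhdc4, and of Banp and Car5a, a mitochondrial carbonic anhydrase.

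The direction of transcription was balanced. Of the 2612 gene starts within 40 kb of a border, 1319 were transcribed away from it, 50.5% (48.6 to 52.4%). The corresponding shares were 52.5% at the other borders of both lists and 49.7% at positions inside TADs. A start between 2 neighbouring positions inside TADs was counted once as away and once as toward. This holds the share inside TADs near 50% whatever the strands, so it is no measure of direction. For each border the nearest gene start on the left was then paired with the nearest on the right, which was possible for 1791 borders. Convergent pairs, both transcribed toward the border, made up 561 (31.3%, 29.2 to 33.5%) against 27.6% inside TADs, a difference of 3.73 points (1.58 to 5.95), with the same sign on 15 of 19 autosomes. Divergent pairs made up 332 (18.5%, 16.8 to 20.4%) against 20.7%, a difference of -2.19 points (-3.96 to -0.282). Neighbouring positions inside TADs often share the same pair, so wide gaps between starts weigh more there. The intervals against positions inside TADs treat these repeats as independent. Without genes known only by a Gm number or a Rik name the divergent difference was -1.53 points, with an interval that included 0 (-3.31 to 0.372). The divergent share was 17.0% at the other borders of both lists (1.71 points, -0.744 to 4.18) and 17.1% at positions abutting in 1 list only (1.44 points, -1.19 to 4.03). The convergent share was 29.0% at the other borders of both lists, a difference of 2.65 points (-0.303 to 5.61). At positions abutting in 1 list only it was 28.8% (2.51 points, -0.620 to 5.62), and both of these convergent intervals included 0. Against the positions 400 kb away both intervals included 0. There the convergent share was 31.8%, a difference of -0.542 points (-3.15 to 2.11), and the divergent share 17.1%, a difference of 1.41 points (-0.734 to 3.62).

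Some borders nonetheless lay almost exactly at a divergent promoter. Of the 734 pairs of divergent protein-coding starts at most 1 kb apart on the autosomes, 140 (19.1%, 16.4 to 22.1%) had their midpoint within 40 kb of 1 of these borders, beside 12.6% of all autosomal protein-coding gene starts. Off chromosome 18, the nearest was the pair of Wdr4, a subunit of a tRNA methyltransferase, and Ndufv3, a subunit of complex I. The 134 bases between their starts, printed above, spanned the bin edge at 31520000 on chromosome 17, so that Wdr4 was transcribed into the left TAD (200 kb in both cultures) and Ndufv3 into the right one (120 kb in both). This stretch held 9 CpG dinucleotides and was 61.9% G or C. The bin edge itself has a resolution of 40 kb, so a distance below that does not place the border more finely. The next pairs were Hnrnpdl and Enoph1 on chromosome 5 (0.175 kb from the border at 100040000), Serac1 and Gtf2h5, a subunit of the repair factor TFIIH, on chromosome 17 (0.236 kb from 6080000), Cd3eap and Ppp1r13l on chromosome 7 (0.384 kb from 19360000), and Atp5c1, the gamma subunit of ATP synthase, and Kin on chromosome 2 (0.551 kb from 10080000). The 44 bases between Serac1 and Gtf2h5 held 2 CpG and those between Atp5c1 and Kin, 82 in number, held 8. The border beside the pair of Cd3eap and Ppp1r13l lay inside Ppp1r13l, to the right of both starts. It also had the starts of Ercc1 and Ercc2, both genes of nucleotide excision repair, within 40 kb, and its flanks of 240 and 280 kb were the same in both cultures.

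The promoters near these borders were rich in CpG. Over the 300 bases around each gene start (250 before and 50 after it), 1396 of the 2612 genes within 40 kb of a border (53.4%, 51.5 to 55.4%) had a G and C share of at least 50% and an observed to expected CpG ratio of at least 0.6. The share was 40.9% for the 18195 genes elsewhere and 52.2% for genes near the other borders of both lists. The median number of CpG dinucleotides in these windows was 16 near the borders and 11 elsewhere. Over the 40 kb on each side, the borders had 44.5% G or C, 452 CpG per 40 kb and 29.2% of bases in repeats, against 40.9%, 299 and 34.2% at positions inside TADs. The positions 400 kb away were nearer to them, with 43.7%, 400 and 30.4%, as were the other borders of both lists, with 44.3%, 440 and 31.6%. MboI, the enzyme that cut the chromatin, had 97.0 sites per 40 kb at the borders and 100 inside TADs. The part of base composition in the shares of gene starts and CTCF matches was not tested.

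Matches to the CTCF consensus were found within 40 kb of 822 borders, 45.8% (43.5 to 48.1%), against 10.2% of the positions inside TADs. The difference was 35.6 points (33.3 to 37.9), and against the positions 400 kb away (23.1%) it was 22.7 points (20 to 25.4). Both held on 19 of 19 autosomes. In this measure the borders abutting in both lists stood above the other classes. The share was 35.1% at the other borders of both lists, 10.6 points lower (7.49 to 13.8, 17 of 19 autosomes), and 36.5% at positions abutting in 1 list only, 9.25 points lower (5.89 to 12.6, 17 of 19 autosomes). Gene starts and CTCF matches therefore ordered the border classes differently. A match was about as common at borders with a gene start (46.3%, 43.6 to 49.1%) as without one (44.4%, 40.2 to 48.8%), whereas inside TADs the shares were 16.3% and 8.41%. The corresponding shares were 36.2% and 31.4% at the other borders of both lists, and 37.9% and 33.9% at positions abutting in 1 list only. At 284 borders (15.8%) there was neither a gene start nor a match within 40 kb.

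The matches had a clear orientation. Of 1123 within 40 kb of the borders, 411 lay on the left on the minus strand and 387 on the right on the plus strand, so that 798 (71.1%, 68.3 to 73.6%) pointed away from the border into the TAD they lay in. The other 150 on the left and 175 on the right pointed toward the border. Outward shares were 68.6% at the other borders of both lists, 62.4% (58.8 to 65.9%) at positions abutting in 1 list only, 46.5% inside TADs and 49.2% at the positions 400 kb away. A match between neighbouring positions inside TADs was counted both as outward and as inward. This holds the share inside TADs nearly even whatever the strands, so that share is no measure of orientation. The interval for the abutting borders of both lists lay above that for positions abutting in 1 list only and overlapped that for the other borders of both lists (65.5 to 71.6%). Outward matches on both sides of the same border occurred at 67 borders (3.73%, 2.95 to 4.71%) against 0.167% of positions inside TADs, 0.755% of the positions 400 kb away, 1.21% of the other borders of both lists and 1.84% of positions abutting in 1 list only. Of the other borders of both lists, 1249 abutted in neither list. These have in each list a TAD on 1 side only and a stretch outside TADs on the other, so they are not like borders in this measure. Inward matches on both sides occurred at 10 borders (0.557%), against 0.172% inside TADs and 0.671% of the positions 400 kb away.

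The orientation depended on the distance from the bin edge. In the 10 kb directly right of the borders, 76 matches lay on the plus and 87 on the minus strand, so that 46.6% pointed outward. From 10 to 20 kb the outward share was 74.3% and from 20 to 30 kb it was 85.4%, with 111 matches on the plus and 19 on the minus strand. On the left it was 61.5% in the first 10 kb, 75.3% in the second, 79.1% in the third, and it was highest from 40 to 50 kb, at 83.6% (56 on the minus and 11 on the plus strand). It was 51.9% on the left and 48.8% on the right in the last step, from 90 to 100 kb. The flanking TADs were called in 40 kb steps, so the middle of this pattern has a width below the bin size.

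**Figure D4:**
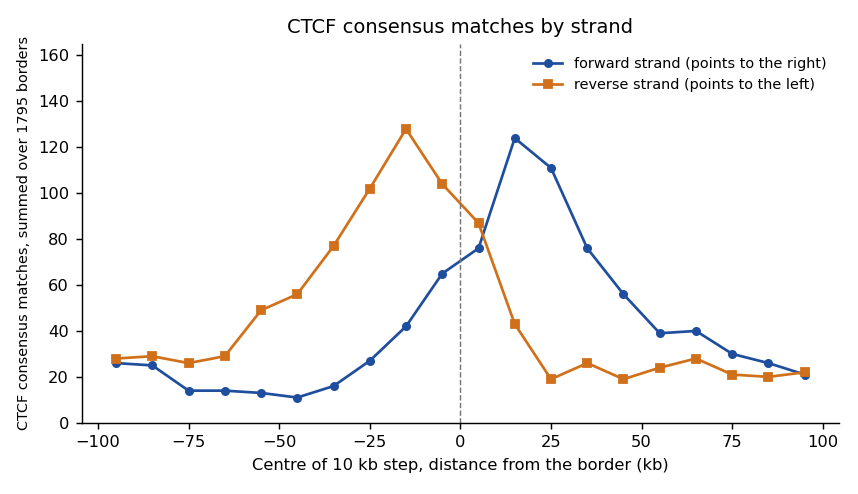
Number of CTCF consensus matches on the plus (circles) and minus strand (squares), summed over the 1795 borders in steps of 10 kb (y axis), against distance from the border (x axis, kb). Minus-strand matches peak at 128 from 10 to 20 kb left of the border and plus-strand matches at 124 from 10 to 20 kb right of it, and the curves cross beside the bin edge.

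The borders off chromosome 18 at which an outward match on each side lay closest are given as examples, with only the nearest outward match on each side, since some had further matches within 40 kb. On chromosome 2 at 27040000, between the starts of Slc2a6 (a sugar transporter) and Cacfd1 on one hand and Adamtsl2 and Mymk (a muscle fusion protein) on the other, these matches lay 1.20 kb to the left, in an exon of the antisense gene Gm13398, and 3.66 kb to the right, in intergenic sequence. The flanks were 120 and 240 kb in 2D and 120 and 200 kb in 3D. On chromosome 6 at 70800000 they lay 1.97 kb to the left and 4.78 kb to the right, both intergenic. The left TAD of this border, of 3280 kb in both cultures, contained 166 annotated starts with an Igk symbol, the gene segments and pseudogenes of the immunoglobulin kappa light chain locus. It also contained Rpia, an enzyme of the pentose phosphate pathway, and the right TAD, of 120 kb in both, contained Eif2ak3, a kinase of the unfolded protein response. On chromosome 16 at 91080000 both matches lay in introns of 4932438H23Rik, 6.30 kb to the left and 1.65 kb to the right. The 120 kb TAD on its left contained Paxbp1 and Synj1 and the 280 kb TAD on its right Olig1 and Olig2, transcription factors of the oligodendrocyte lineage. Another 2 of the 6 lay on chromosome 5 at 90200000, where Gc, the vitamin D binding protein made by the liver, was in the left TAD and Cox18 in the right, and on chromosome 15 at 99000000, where Tuba1a and Tuba1b were in the left TAD and Tuba1c, another alpha-tubulin gene, in the right.

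Genes were then taken by list and class, as the share of genes with a start within 40 kb of 1 of these borders. Over all 20807 autosomal protein-coding genes this share was 12.6% (2612 genes), and the median distance to the nearest of these borders was 325 kb. Of 319 genes in 6 lists of the basic cell machinery, 76 lay near a border, 23.8% (19.5 to 28.8%), with a median distance of 251 kb. The lists were taken by symbol, so the 76 include Rpl3l, Cox6a2 and Cox8c. How widely each listed gene is expressed was not checked. The respiratory chain had 23 of 77 genes (29.9%, 20.8 to 40.8%), the spliceosome 9 of 34 (26.5%, 14.6 to 43.1%) and the cytosolic ribosome 20 of 81 (24.7%, 16.6 to 35.1%). Translation initiation factors, taken by an Eif symbol and so including Eif4ebp2, which encodes a repressor of initiation, had 10 of 52 (19.2%), aminoacyl-tRNA synthetases 7 of 37 (18.9%) and the proteasome 7 of 38 (18.4%), and the intervals of these 3 lists included 12.6%.

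Within the respiratory chain, Cox7a2 of complex IV started 0.122 kb left of the border on chromosome 9 at 79760000, between TADs of 1120 and 280 kb, and was transcribed away from it. Ndufv3 started 0.115 kb from its border and Ndufb6, also of complex I, 0.579 kb from the border on chromosome 4 at 40280000. The 23 gene models carry 22 symbols, since Atp5o is annotated as 2 genes at 1 border. Of the 23, 14 were transcribed away from the border and 9, both Atp5o models included, toward it. The listed ribosomal genes divided evenly, with 10 in each direction and Rpl3l among those transcribed away. Rpl12 started 1.56 kb from the border on chromosome 2 at 32960000, whose flanks were 120 and 520 kb in 2D and 280 and 480 kb in 3D. Rpl27 started 2.30 kb from the border on chromosome 11 at 101440000, with flanks of 120 and 120 kb in 2D and 240 and 120 kb in 3D. Rpl3, with flanks of 160 kb on both sides in both cultures, started 11.9 kb from the border on chromosome 15 at 80080000. Among the initiation factors, Eif1, which takes part in the choice of the start codon, began 0.115 kb left of the border on chromosome 11 at 100320000 and was transcribed across it. Its flanks were 1080 and 240 kb in 2D and 1160 and 400 kb in 3D. Tars, the threonyl-tRNA synthetase, started 0.335 kb from the border on chromosome 15 at 11400000, with flanks of 400 and 600 kb in both cultures.

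**Figure D5:**
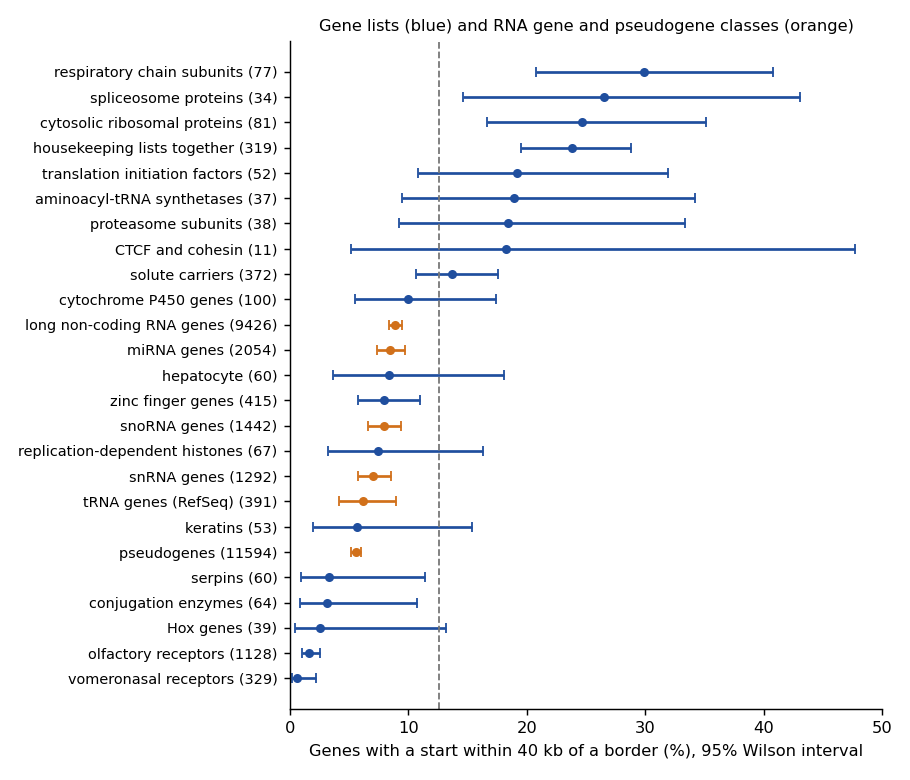
Share of genes (%) with a start within 40 kb of 1 of the 1795 borders (x axis), for the gene lists (blue) and the classes of RNA gene and pseudogene (orange), with the number of genes in brackets and 95% Wilson intervals. The dashed line is the share of all protein-coding genes, 12.6%; olfactory and vomeronasal receptors lie lowest and the respiratory chain highest.

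Of 1128 olfactory receptor genes, 18 (1.60%, 1.01 to 2.51%) started within 40 kb of 1 of these borders, at 11 borders, and their median distance was 1002 kb. Of 329 vomeronasal receptor genes, 2 did (0.608%), with a median distance of 897 kb. Zinc finger genes had 33 of 415 (7.95%, 5.72 to 11.0%), serpins 2 of 60 (3.33%) and conjugation enzymes, which make xenobiotics soluble, 2 of 64 (3.12%). The intervals of these 5 lists lay below 12.6%. Those of the replicative histones (5 of 67, all at 1 border), keratins (3 of 53, all at 1 border), Hox genes (1 of 39), cytochrome P450 genes (10 of 100, at 7 borders) and solute carriers (51 of 372, 13.7%) included it. Genes of a cluster share their borders, so the intervals of clustered families are too narrow.

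Of 60 hepatocyte genes, 5 started within 40 kb of these borders, 8.33% (3.61 to 18.1%), an interval that includes the 12.6% of all genes. Ambp, the precursor of alpha-1-microglobulin and bikunin, started 5.20 kb from the border on chromosome 4 at 63160000, with flanks of 360 and 240 kb in both cultures, and was transcribed away from it. Slc10a1, the bile acid importer, started 8.71 kb from the border on chromosome 12 at 80960000 (240 and 480 kb in both). Fbp1, an enzyme of gluconeogenesis, started 8.28 kb from the border on chromosome 13 at 62880000 (880 and 560 kb in both). Slc10a1 and Fbp1 were transcribed toward their borders. Of 11 autosomal genes of CTCF, cohesin and its regulators, Esco2, a cohesin acetyltransferase, started 34.0 kb and Smc3, a cohesin subunit, 39.6 kb from a border, and the flanks of both borders were identical in the 2 cultures.

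Other gene classes were less dense near these borders than protein-coding genes. Long non-coding RNA genes had 8.89% of their 9426 starts within 40 kb, miRNA genes 8.47%, snoRNA genes 7.91%, snRNA genes 7.04% and pseudogenes 5.57%. Counted by border, a long non-coding RNA gene started within 40 kb of 35.1% of the borders (32.9 to 37.3%) against 20.1% of positions inside TADs, and a miRNA gene near 8.36% against 3.81%. At the other borders of both lists these shares were 34.2% and 10.7%, and at positions abutting in 1 list only 33.5% and 7.35%. Pseudogenes started near 28.2% of the borders (26.2 to 30.3%), 24.0% of positions inside TADs and 33.2% of the other borders of both lists. Of 391 tRNA genes, 24 (6.14%) lay near 14 borders, 0.780% of the borders (0.465 to 1.30%) against 0.192% of positions inside TADs, 1.42% of the other borders of both lists and 1.31% of positions abutting in 1 list only.

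The borders were spread over all autosomes. Chromosome 11 had the most per Mb, 0.985 (117 borders), and a gene started within 40 kb of 87.2% of them (79.9 to 92.1%). Chromosome 12 had the fewest per Mb, 0.598 (70 borders), with a gene start near 67.1% (55.5 to 77.0%). Chromosome 11 held 13.8 protein-coding genes per Mb and chromosome 12 held 5.50, and the part of gene density in these shares was not tested. The share of outward CTCF matches was similar on both, at 69.4% and 76.6%.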

How the data were processed

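In situ Hi-C was done on 2 biological replicates each of the 2D-cultured and the 3D-cultured AML12 cells. The values deposited by the authors are TAD starts and ends in bp of mm10, in 1 list per culture, on a 40 kb grid. According to the methods of the study, reads were mapped iteratively with Bowtie 2 (2.2.9), pairs with a mapping quality above 30 were kept, replicates were combined, the 40 kb matrices were ICE-normalized and set to equal depth per chromosome, and domains were called with Armatus (1.0) at a gamma of 0.8. No counts accompany the TADs, so their depth is unknown. The contact matrices and expression data were not analysed here.

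All measures were computed in Python (3.11.15) and plotted with matplotlib (3.10.9). Genes came from GENCODE M21, tRNA genes from RefSeq (GRCm38.p6), and bases from GRCm38.p6, whose autosomes end just beyond the last TADs of the lists. A gene start is the 5′ end of the gene model, a pair is the nearest start on each side, and a CTCF match is placed by its middle base. The search found 6323 consensus matches on the autosomes, 11.0% of them in repeats. Gene families were taken by symbol pattern, and hepatocyte and cohesin genes by name. Named borders were those with the most starts, the longest smallest flank, the nearest divergent pairs, the longest gene across them and the greatest distance from a start, off chromosome 18, and the autosomes with the most and fewest borders per Mb. The listed housekeeping genes described singly, the 6 outward pairs and the flank contents were chosen after their values were seen. Some of the genes and borders these rules select are not reported here. The members and lists were chosen with earlier results of these data known. The code was tested on simulated lists, and 8 of 8 measures returned the known value. Shares carry 95% Wilson intervals and differences 95% Newcombe intervals. Borders are not replicates of a culture, so no p-values were computed.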

Additional observations from a re-analysis of the deposited data

How the results depend on the processing

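No paired analysis was possible because both replicates of a culture stand in a single TAD list, and for that reason no replicate could be left out. Of 84 alternatives, 68 left shares, medians and counts close to their value or kept the sign of a difference and its side of 0, although 7 of these changed a difference by more than 1.5 times. A further 12 moved the value, in 2 the interval came to include 0, and 2 reversed. Those for convergent pairs and for the outward share of CTCF matches were chosen after seeing the data.

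Keeping only borders whose 4 flanking TADs measured at least 200 kb left 771 of the 1795. The share with a gene start was then 61.2%, the median flank 400 kb (280 kb over both lists otherwise), and 55.8% had both flanks identical. The gene-start difference from positions abutting in 1 list only was 3.59 points (-1.48 to 8.64), that from the other borders of both lists -14.2 points (-18.5 to -9.84), and the divergent difference -3.56 points. With fewer borders, 10.3% of housekeeping genes lay near one, against 4.06% of all protein-coding genes. With a tolerance of 1 bin between the lists, both flanks were identical at 45.8%, and the gene-start difference from positions abutting in 1 list only was 11.8 points (7.24 to 16.4). Within 20 kb the gene-start share was 53.2% and the outward CTCF share 64.6%. Within 80 kb, gene starts were near 84.1% of borders, 20% of hepatocyte and 29.2% of housekeeping genes were near a border, against 20.2% of all protein-coding genes, and the difference from positions abutting in 1 list only was 3.81 points. With the start of every transcript, the gene-start share was 77.4%. Without genes known only by a Gm number or a Rik name, the divergent difference was -1.53 points (-3.31 to 0.372). Against positions 400 kb away, the differences in gene starts, CTCF matches and position inside a gene were 23.7, 22.7 and 4.01 points, the divergent difference reversed to 1.41 points and the convergent difference to -0.542 points; the cause was not tested. Positions are known to 40 kb, and the missing read counts leave the certainty of single borders unknown.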
